A study of Homo sapiens with 6 samples.

Results

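The genes described here encode enzymes of the tricarboxylic acid (TCA) cycle and the carriers, enzymes and regulators through which pyruvate and glutamine carbon enter it. They do not cover every step of the cycle: succinate dehydrogenase is not among them, and their aconitase, ACO1, is cytosolic. Members were the rows of the count tables whose symbol equals 1 of 35 listed names, and all 35 were found among 56638 listed symbols. All 35 also passed the filter on low counts, which kept 15242 genes for testing; 34 met its minimum in every library, and PDK4 met it in 1 control and in the 3 libraries of the other group. The cells were DLD-1, an established human colorectal cancer line, and both groups had been transfected: one with a control siRNA and the other with an siRNA that targets the long non-coding RNA lncSLCC1, found in the tables as RP11-400N13.2. There were 3 libraries of total RNA per group, and whether each was its own culture is not stated; p-values therefore reflect the spread among these libraries, which may be technical. The sequence of the siRNA was not used here. The comparison asks which of these transcripts differed when lncSLCC1 was targeted. Transcript levels do not measure enzyme activity or flux.

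The TCA cycle oxidises acetyl groups to carbon dioxide in the mitochondrial matrix and passes the electrons to the respiratory chain. Pyruvate enters the matrix through a carrier and is turned into acetyl-CoA by the pyruvate dehydrogenase (PDH) complex, which PDH kinases switch off by phosphorylation and PDH phosphatases switch on again. Intermediates that leave the cycle for lipid, nucleotide and amino acid synthesis are replaced by pyruvate carboxylase and by glutamine, whose carbon enters as 2-oxoglutarate; proliferating cancer cells often draw on this second route.

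Reads assigned to genes numbered 12572277 to 15568075 per library, and the members took 0.370% to 0.390% of them. RP11-400N13.2 stood at 5.20 to 9.31 CPM (counts scaled to a common library size by TMM) in controls and 1.66 to 2.62 CPM after lncSLCC1 siRNA. Of 9 colorectal epithelial markers, 8 were above 10 CPM in every library and CDX1 was below 1 CPM. Among these 8, VIL1 passed the test, at 13.8 to 19.5 CPM in controls and 27.7 to 34.6 CPM after lncSLCC1 siRNA (adjusted p = 0.0062 by edgeR), and the log2 fold changes of the other 7 ran from -0.28 (CDX2, groups not overlapping) through 0.23 (CDH1, groups not overlapping) to 0.24 (KRT20). Without control replicate 1, VIL1, CDH1 and KRT19 passed as higher and CDX2 and EPCAM as lower. The part of these markers in the results was not tested. Of 8 stromal, endothelial and immune markers, DCN and PECAM1 had no read in any library and none of the others passed 2.21 CPM. Control replicate 1 stood apart from the other controls for the members too. It was the highest of the 3 controls for 18 members, whose transcripts had a median GC content of 52.1%, and the lowest for 12, whose median was 42.1%. Across the 35 members the log2 deviation of control replicate 1 from the other 2 controls followed transcript GC content with a Spearman correlation of 0.76, against 0.67 across 12960 genes; all points share this 1 library, and the part of GC content in the results was not tested. Beside a log2 fold change that moved by over 1.5 times or whose call differed without this library, the value without it is given.

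**Figure D1:**
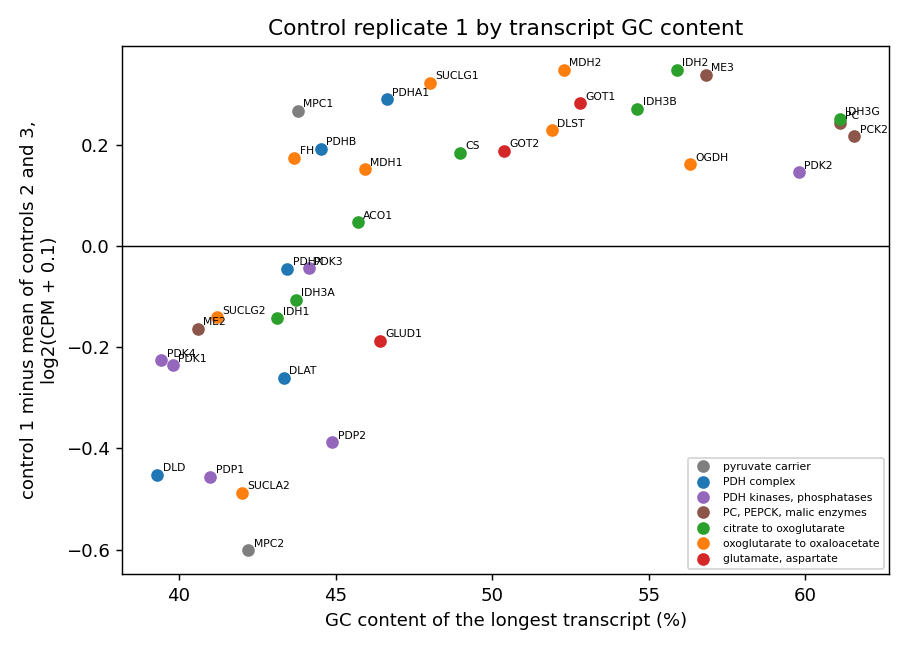
Deviation of control replicate 1 from the mean of control replicates 2 and 3, as a difference of log2(CPM + 0.1), against the GC content in percent of the longest transcript; each point is 1 of the 35 members, coloured by role. DLD, PDP1, SUCLA2 and MPC2 are among the members with low GC content that lie below 0, and members with high GC content, such as IDH2 and MDH2, lie above it. MPC1, FH and PDHB, at 43.8%, 43.7% and 44.5% GC, also lie above 0.

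After lncSLCC1 siRNA, PDK4, which encodes a PDH kinase, rose, and ACO1 and MDH2, which encode cytosolic aconitase and mitochondrial malate dehydrogenase, fell; the other 32 members did not pass the test. A call here is an adjusted p under 0.05 in edgeR's quasi-likelihood test with Benjamini-Hochberg adjustment over all tested genes. The 3 calls are 8.57% of the members, below the 13.8% of all tested genes that were called; 1 was higher, against 6.46% of all genes, and 2 were lower, against 7.39%. PDK4, the 1 higher call, met the low-count minimum in only 1 control, so it was tested because it was high after lncSLCC1 siRNA. With library totals in place of TMM scaling, OGDH, PDK4 and SUCLG2 were called higher and no member lower, while 1442 genes were higher and 814 lower in place of 984 and 1126. Besides PDK4, the log2 fold changes lay within 0.346 of 0, and for 27 members the 95% confidence interval lay within 0.5 of 0 on both sides. The median log2 fold change was -0.13 for the members and 0.0072 for all tested genes, and 24 of 35 members (68.6%) were below 0 against 49.0% of genes. The median size of the change, regardless of sign, was 0.166 for the members and 0.218 for all genes. The groups did not overlap for 13 of 35 members, a share near the 39.0% of all tested genes. Of these, 9 were lower and 4 higher, and the split by direction over all genes was not counted. An unadjusted p under 0.05 was reached by 9 members, against 31.6% of all tested genes.

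The number of calls depended on single libraries. Without control replicate 1, 15 of 35 members passed (42.9%, against 29.0% of all genes): IDH2, OGDH, PCK2, PDK4 and SUCLG2 higher, and ACO1, CS, DLAT, GLUD1, GOT1, MDH2, PDK1, PDP1, SUCLA2 and SUCLG1 lower. With offsets for GC content and transcript length and all 6 libraries, 15 members passed against 30.1% of all genes, and 14 of them were the same genes. Both settings use the same libraries apart from control replicate 1, so this overlap is not independent evidence. Without control replicate 3, 8 members passed against 23.7% of all genes. No member passed without control replicate 2 or without lncSLCC1 siRNA replicate 1, 2 or 3, where 3.95%, 3.79%, 3.03% and 2.93% of all genes did by edgeR; 9, 6, 5 and 9 members then had an unadjusted p under 0.05, where 25.0%, 23.2%, 21.3% and 22.6% of all genes had one. By role, the median log2 fold change was 0.022 for the pyruvate carrier, -0.14 for the PDH complex, -0.135 for its kinases and phosphatases, 0.0031 for carboxylase, malic enzymes and PCK2, -0.10 from citrate to 2-oxoglutarate, -0.16 from 2-oxoglutarate to oxaloacetate and -0.24 for glutamate and aspartate enzymes. Between the fit of all libraries and the fit without control replicate 1, 31 of 35 members kept the sign of their log2 fold change.

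**Figure D2:**
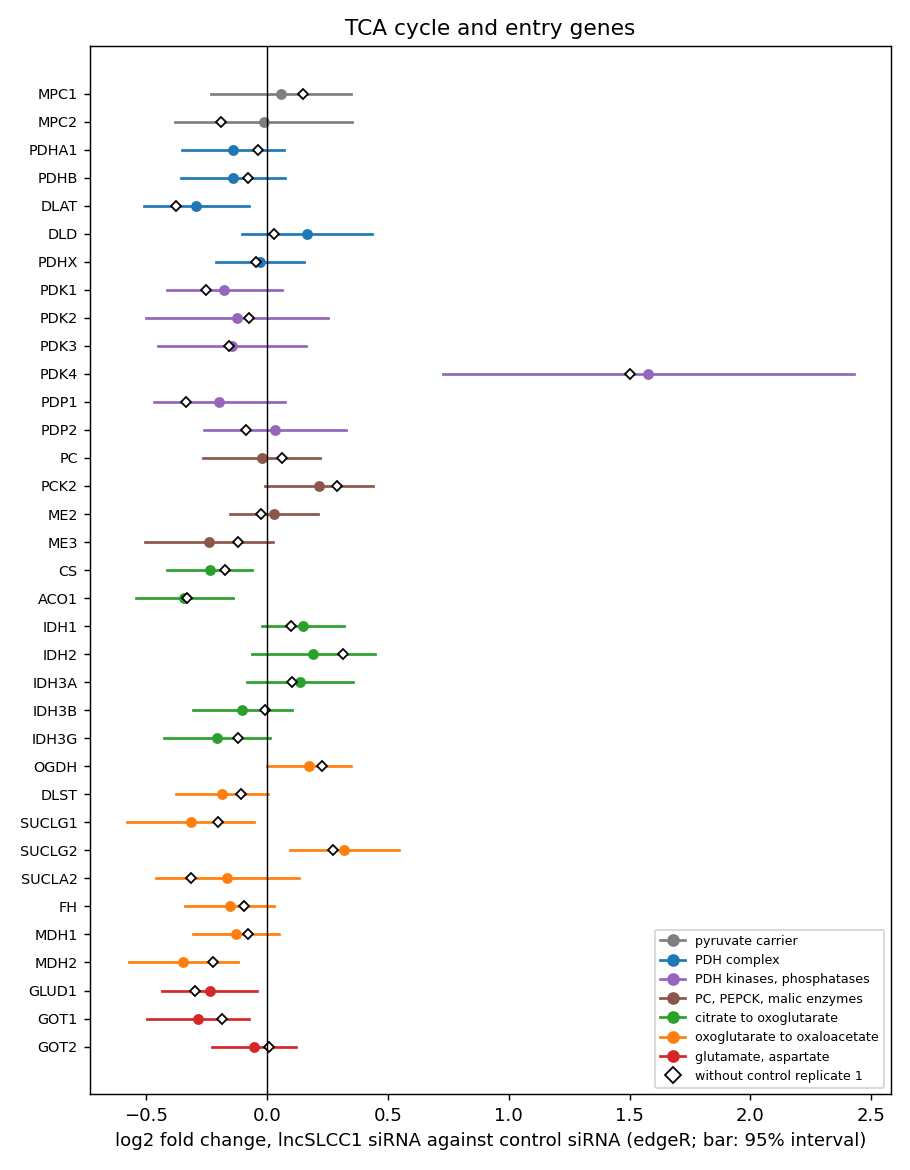
Log2 fold change of each member for lncSLCC1 siRNA against control siRNA by edgeR (filled circles, coloured by role) with its 95% confidence interval (bars), and the log2 fold change without control replicate 1 (open diamonds). PDK4 stands apart at 1.58, and the other members lie within 0.346 of 0 in the fit of all libraries.

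Promoters of the 3 called members and of SUCLG2 and SUCLA2, alternative subunits of succinyl-CoA synthetase, are shown for reference; these genes and the words searched were chosen after their values were seen. They are the 250 bases before the start of each gene in RefSeq, assembly GRCh38.p14, read 5′ to 3′ on the gene's strand; the count tables rest on another build, so no position here is that of a read. Capitals mark the CCAAT box, the word CCGGAAG bound by ETS factors such as GABP, and AAGGTCA, the word bound by estrogen-related receptors, each on either strand.
PDK4 (chr7:95596517-95596766, minus strand): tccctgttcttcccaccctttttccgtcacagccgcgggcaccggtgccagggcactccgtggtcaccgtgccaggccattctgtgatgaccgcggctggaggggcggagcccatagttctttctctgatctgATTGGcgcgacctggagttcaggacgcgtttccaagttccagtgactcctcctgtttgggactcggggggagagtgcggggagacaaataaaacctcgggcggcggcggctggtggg
ACO1 (chr9:32384393-32384642, plus strand): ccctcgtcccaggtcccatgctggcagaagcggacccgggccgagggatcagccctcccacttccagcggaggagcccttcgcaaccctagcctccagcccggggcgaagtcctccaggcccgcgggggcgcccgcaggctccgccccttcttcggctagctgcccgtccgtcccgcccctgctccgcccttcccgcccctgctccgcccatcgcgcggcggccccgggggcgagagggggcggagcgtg
MDH2 (chr7:76047856-76048105, plus strand): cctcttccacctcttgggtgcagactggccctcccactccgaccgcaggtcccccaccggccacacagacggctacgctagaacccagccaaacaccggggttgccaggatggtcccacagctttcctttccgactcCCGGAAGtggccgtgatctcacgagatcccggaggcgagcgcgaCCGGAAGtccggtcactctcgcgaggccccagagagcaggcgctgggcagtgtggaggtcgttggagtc
SUCLG2 (chr3:67654613-67654862, minus strand): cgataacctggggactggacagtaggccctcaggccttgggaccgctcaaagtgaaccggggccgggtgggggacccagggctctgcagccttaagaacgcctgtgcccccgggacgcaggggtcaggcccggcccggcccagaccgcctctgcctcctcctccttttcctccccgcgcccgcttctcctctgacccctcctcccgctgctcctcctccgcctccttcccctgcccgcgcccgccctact
SUCLA2 (chr13:48001274-48001523, minus strand): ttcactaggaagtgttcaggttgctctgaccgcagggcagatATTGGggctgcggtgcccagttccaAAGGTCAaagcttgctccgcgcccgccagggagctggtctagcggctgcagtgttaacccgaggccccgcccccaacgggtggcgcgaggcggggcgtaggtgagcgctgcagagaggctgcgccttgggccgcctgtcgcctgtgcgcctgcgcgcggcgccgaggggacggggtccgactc

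Over the window from 250 bases before to 50 bases after the start, 33 of the 35 members matched an entry in RefSeq's promoter table; PDP1 and OGDH did not. CCGGAAG on either strand was in the promoters of ME2, IDH3B, IDH3G, DLST and MDH2, which is 15.2% of the 33 against 10.7% of 27305 promoters. MDH2 holds it at positions that begin 113 and 69 bases before the start. AAGGTCA was in 1 of the 33 (3.03%), SUCLA2, against 3.97% of all promoters, and the word GCGCATGCG, a core of the NRF1 site, was in 0 of the 33 against 2.1%. CCAAT was in 21 of the 33 (63.6%) against 35.7% of all promoters. The 27305 promoters were not limited to genes tested here, so these shares are not matched for expression. Of the 3 called members PDK4 holds CCAAT, MDH2 holds CCGGAAG and ACO1 holds none of the 4 words. The words do not overlap each other in the printed stretches. A match is a description of the letters in this window and not a binding site.

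At the entry of pyruvate, neither subunit of the mitochondrial pyruvate carrier passed the test. Levels are given in the order of replicates 1, 2 and 3. MPC1 stood at 23.8, 20.8 and 18.7 CPM in controls and at 19.1, 23.4 and 23.4 CPM after lncSLCC1 siRNA (log2 fold change 0.06, SE 0.130, and 0.15 without control replicate 1). MPC2 stood at 15.2, 25.1 and 21.3 CPM in controls and at 20.1, 19.7 and 21.4 CPM after lncSLCC1 siRNA (log2 fold change -0.01, SE 0.164, and -0.19 without control replicate 1). The groups overlapped for both, and control replicate 1 was the lowest library for MPC2.

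None of the 5 subunits of the PDH complex passed the test, and DLAT, the acetyltransferase that forms its core, had the largest log2 fold change among them in size. DLAT stood at 83.9, 94.9 and 106 CPM in controls and at 77.6, 76.4 and 78.6 CPM after lncSLCC1 siRNA. The groups did not overlap, but the difference missed the threshold (log2 fold change -0.29 with an SE of 0.097, adjusted p = 0.072 by edgeR); without control replicate 1 it passed at -0.38 (adjusted p = 0.000104). PDHA1 and PDHB, the E1 alpha and beta subunits, had log2 fold changes of -0.141 and -0.142, with overlapping groups, which went to -0.039 and -0.078 without control replicate 1. PDHX, which tethers the E3 subunit to the DLAT core, stood at 50.6 to 52.6 CPM in controls and 50.1 to 51.1 CPM after lncSLCC1 siRNA. The ratio of PDHX reads to DLAT reads within a library, in which any scaling of the library cancels, was 0.604, 0.555 and 0.489 in controls and 0.657, 0.655 and 0.650 after lncSLCC1 siRNA. The lncSLCC1 siRNA libraries were all above the controls (exact two-sided permutation p = 0.1, the smallest that 3 against 3 libraries allow). DLD, the E3 subunit that the PDH complex shares with the oxoglutarate dehydrogenase complex, stood at 99.2, 134 and 137 CPM in controls and at 140.2, 131 and 144 CPM after lncSLCC1 siRNA; its log2 fold change of 0.16 went to 0.03 without control replicate 1.

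Among the regulators of PDH, PDK4 rose and none of the other 5 passed. PDK4 is the isoform known for induction by fasting, glucocorticoids and fatty acids. It stood at 0.570, 0.260 and 1.11 CPM in controls and at 1.99, 2.04 and 1.79 CPM after lncSLCC1 siRNA, so that all lncSLCC1 siRNA libraries lay above all controls. These levels rest on 8, 4 and 17 reads in controls and on 30, 32 and 23 reads after lncSLCC1 siRNA. The mean was 0.645 ± 0.428 CPM in controls (SD, n = 3) and 1.94 ± 0.133 CPM after lncSLCC1 siRNA (SD, n = 3), which is 301% of the former. On the log2 scale edgeR gave a rise of 1.58 (SE 0.382) with a 95% confidence interval from 0.73 to 2.43 and an adjusted p of 0.0259. PDK4 reached the low-count minimum of 0.664 CPM through the lncSLCC1 siRNA libraries and 1 control, so that it was tested because it was high in the former. Without control replicate 1 the rise was 1.4997 (adjusted p = 0.00644 by edgeR). The call was lost when control replicate 2 was left out (log2 fold change 1.19, adjusted p = 0.0846 by edgeR), and also when lncSLCC1 siRNA replicate 1, 2 or 3 was (adjusted p = 0.0886, 0.103 and 0.0813). Per length of the longest transcript, PDK4 was the lowest of the 35 members, at 0.180 CPM per kilobase of transcript (RPKM) in controls and 0.543 RPKM after lncSLCC1 siRNA.

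None of the other 3 kinases passed. PDK1, the isoform known as a target of hypoxia-inducible factor, stood at 25.3, 30.1 and 29.6 CPM in controls and at 24.6, 26.3 and 24.3 CPM after lncSLCC1 siRNA (log2 fold change -0.18, SE 0.107); without control replicate 1 it passed at -0.25 (adjusted p = 0.0291 by edgeR). PDK2 and PDK3 had log2 fold changes of -0.12 and -0.15, with -0.08 for PDK2 without control replicate 1. PDP1, the calcium-stimulated PDH phosphatase, stood at 78.5, 107 and 108 CPM in controls and at 88.2, 85.2 and 82.8 CPM after lncSLCC1 siRNA. With control replicate 1 the groups overlapped (log2 fold change -0.198, adjusted p = 0.29 by edgeR), and without it PDP1 passed at -0.34 (adjusted p = 0.000189). PDP2, the other phosphatase, had a log2 fold change of 0.03, and of -0.09 without control replicate 1. The within-library ratio of PDK1 to PDP1 reads ran from 0.273 to 0.323 in controls and from 0.279 to 0.309 after lncSLCC1 siRNA, a log2 difference of 0.0093 that went to 0.083 without control replicate 1.

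Enzymes that join pyruvate, malate and phosphoenolpyruvate to the cycle outside PDH did not pass the test. PC, pyruvate carboxylase, which makes oxaloacetate from pyruvate, stood at 31.6, 25.5 and 27.8 CPM in controls and at 27.2, 28.3 and 28.1 CPM after lncSLCC1 siRNA (log2 fold change -0.02, SE 0.108, and 0.06 without control replicate 1). PCK2, the mitochondrial phosphoenolpyruvate carboxykinase, stood at 47.8, 42.2 and 39.9 CPM in controls and at 51.7, 46.9 and 52.3 CPM after lncSLCC1 siRNA. The groups overlapped by 1 library each (log2 fold change 0.21 with an SE of 0.101, adjusted p = 0.174 by edgeR), and PCK2 passed without control replicate 1 at 0.29 (adjusted p = 0.00651). ME2, the NAD-linked mitochondrial malic enzyme, had a log2 fold change of 0.03, and of -0.025 without control replicate 1. ME3, its NADP-linked counterpart, stood at 52.3, 44.2 and 38.6 CPM in controls and at 37.6, 37.1 and 39.6 CPM after lncSLCC1 siRNA (log2 fold change -0.24 with an SE of 0.119, adjusted p = 0.193 by edgeR), which went to -0.12 without control replicate 1.

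From citrate to 2-oxoglutarate, ACO1 fell and the isocitrate dehydrogenases did not pass. ACO1 is the cytosolic aconitase, which becomes the RNA-binding iron regulatory protein when it loses its iron-sulphur cluster. It stood at 51.7, 47.1 and 53.0 CPM in controls and at 39.9, 38.9 and 40.9 CPM after lncSLCC1 siRNA, with no overlap. The mean was 50.6 ± 3.07 CPM in controls (SD, n = 3) and 39.9 ± 1.01 CPM after lncSLCC1 siRNA (SD, n = 3), which is 78.8% of the former. On the log2 scale this is a change of -0.34 (SE 0.090) with a 95% confidence interval from -0.54 to -0.14 and an adjusted p of 0.0349 by edgeR. Without control replicate 1 the value was nearly the same, at -0.33 (adjusted p = 0.00224). The call was lost with library totals in place of TMM (adjusted p = 0.0604), with the replicate block (0.0535), when control replicate 2 was left out (0.0713), and when lncSLCC1 siRNA replicate 1, 2 or 3 was (0.138, 0.164 and 0.126).

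CS, citrate synthase, which condenses acetyl-CoA with oxaloacetate, stood at 353, 318 and 303 CPM in controls and at 278, 273 and 276 CPM after lncSLCC1 siRNA. The groups did not overlap, and the difference missed the threshold with all libraries (log2 fold change -0.24 with an SE of 0.079, adjusted p = 0.0717 by edgeR) and passed without control replicate 1 at -0.17 (adjusted p = 0.014). IDH1, the cytosolic NADP-linked isocitrate dehydrogenase, stood at 201, 219 and 225 CPM in controls and at 234, 233 and 247 CPM after lncSLCC1 siRNA. All 3 lncSLCC1 siRNA libraries lay above the controls, by less than the test required (log2 fold change 0.15 with an SE of 0.076, adjusted p = 0.212 by edgeR). IDH2, its mitochondrial counterpart, stood at 79.7, 64.8 and 60.5 CPM in controls and at 79.6, 72.0 and 82.6 CPM after lncSLCC1 siRNA. Control replicate 1 lay among the lncSLCC1 siRNA libraries, and the log2 fold change went from 0.19 (adjusted p = 0.277) to 0.31 (adjusted p = 0.00172 by edgeR) without it. The IDH1 to IDH2 read ratio ran from 2.52 to 3.72 in controls and from 2.94 to 3.23 after lncSLCC1 siRNA, a log2 difference of -0.05 that went to -0.214 without control replicate 1. The NAD-linked enzyme of the cycle is built from the catalytic subunit IDH3A and the regulatory subunits IDH3B and IDH3G, whose log2 fold changes were 0.14, -0.10 and -0.21, and none passed; without control replicate 1 IDH3B was at -0.0085 and IDH3G at -0.12.

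From 2-oxoglutarate to oxaloacetate, MDH2 fell, and no other of the 8 members passed. MDH2, the mitochondrial malate dehydrogenase that closes the cycle and serves the malate-aspartate shuttle, stood at 518, 421 and 393 CPM in controls and at 345, 353 and 349 CPM after lncSLCC1 siRNA. All lncSLCC1 siRNA libraries were below all controls, and the controls were far more scattered. The mean was 444 ± 65.5 CPM in controls (SD, n = 3) and 349 ± 3.95 CPM after lncSLCC1 siRNA (SD, n = 3). On the log2 scale this is a change of -0.35 (SE 0.102) with a 95% confidence interval from -0.57 to -0.12, and the adjusted p of 0.0499 by edgeR lay just inside the threshold. Without control replicate 1, its highest library, the log2 fold change was -0.22 (adjusted p = 0.00232). The call was lost with library totals (adjusted p = 0.0685), a filter at a mean of 1 CPM (0.0523), the replicate block (0.0524) or limma-voom (0.0566), when control replicate 2 was left out (0.109), and when lncSLCC1 siRNA replicate 1, 2 or 3 was (0.162, 0.166 and 0.166). MDH1, the cytosolic enzyme of the same shuttle, had a log2 fold change of -0.13 (SE 0.080, adjusted p = 0.298 by edgeR), and of -0.08 without control replicate 1. The MDH1 to MDH2 read ratio was 0.513, 0.578 and 0.598 in controls and 0.631, 0.629 and 0.688 after lncSLCC1 siRNA, with no overlap (exact permutation p = 0.1). Per length, MDH2 was the highest of the 35 members in controls, at 201 ± 29.6 RPKM (SD, n = 3).

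Succinyl-CoA synthetase pairs the common alpha subunit SUCLG1 with a beta subunit that sets the nucleotide made, SUCLG2 for GTP and SUCLA2 for ATP. The log2 fold changes of the 2 beta subunits had opposite signs, and neither passed with all libraries. SUCLG2 stood at 27.0, 29.4 and 30.1 CPM in controls and at 38.9, 34.4 and 34.8 CPM after lncSLCC1 siRNA; the groups did not overlap, and the difference missed the threshold (log2 fold change 0.32 with an SE of 0.101, adjusted p = 0.0608 by edgeR). SUCLA2 stood at 50.9, 69.96 and 72.9 CPM in controls and at 55.7, 55.4 and 61.7 CPM after lncSLCC1 siRNA (log2 fold change -0.17 with an SE of 0.133, adjusted p = 0.422). Without control replicate 1 both passed, at 0.27 for SUCLG2 (adjusted p = 0.0169) and -0.31 for SUCLA2 (adjusted p = 0.00146 by edgeR). The SUCLA2 to SUCLG2 read ratio was 1.89, 2.38 and 2.42 in controls and 1.43, 1.61 and 1.78 after lncSLCC1 siRNA. Every lncSLCC1 siRNA library was below every control, a 1.38-fold difference (log2 difference -0.47, exact two-sided permutation p = 0.1, 0.2 adjusted over the 8 ratios), and the log2 difference was -0.58 without control replicate 1. SUCLG1 stood at 109, 88.9 and 86.0 CPM in controls and at 70.0, 72.2 and 86.2 CPM after lncSLCC1 siRNA; lncSLCC1 siRNA replicate 3 reached the lowest control (log2 fold change -0.32 with an SE of 0.118, adjusted p = 0.101 by edgeR), and without control replicate 1 it passed at -0.21 (adjusted p = 0.0423).

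Reads shared with copies may bear on SUCLG2, a check made after its values were seen. Its 2 pseudogene rows held 723 reads over all libraries, 25.2% of the 2864 reads of SUCLG2, and the sum of gene and pseudogenes stood at 33.0, 37.8 and 37.9 CPM in controls and at 48.2, 43.2 and 43.4 CPM after lncSLCC1 siRNA. The sum had a log2 difference of 0.31, close to that of the gene alone, which holds most of the sum. Reads that were not unique are in none of these rows, so the sum cannot show their part.

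**Figure D3:**
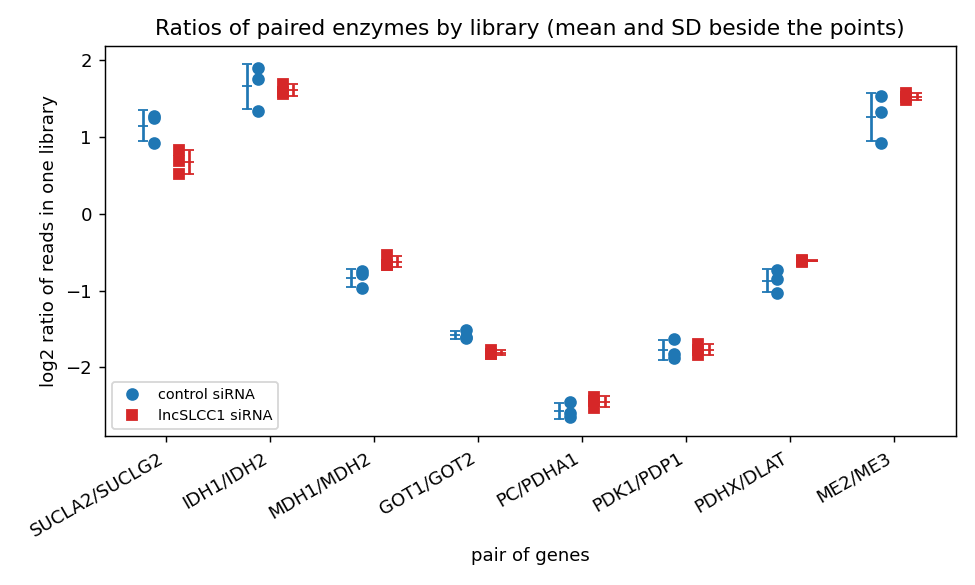
Log2 ratio of the reads of 2 members in the same library for the 8 pairs compared, with controls as blue circles and lncSLCC1 siRNA libraries as red squares; bars beside the points give the mean and SD of 3 libraries. The groups do not overlap for SUCLA2/SUCLG2, MDH1/MDH2, GOT1/GOT2 and PDHX/DLAT, and overlap for the other 4 pairs.

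OGDH, the E1 subunit of the oxoglutarate dehydrogenase complex, and DLST, its E2 core, also lay on opposite sides of 0. OGDH stood at 235, 206 and 214 CPM in controls and at 251, 249 and 238 CPM after lncSLCC1 siRNA, and DLST at 225, 189 and 195 CPM in controls and at 176, 176 and 183 CPM after lncSLCC1 siRNA. The groups overlapped for neither gene. Neither passed (log2 fold changes 0.17 and -0.19, adjusted p = 0.158 and 0.165 by edgeR), and without control replicate 1 OGDH passed at 0.23 (adjusted p = 0.00292) while DLST stood at -0.11. FH, fumarase, stood at 170, 156 and 146 CPM in controls and at 136, 143 and 145 CPM after lncSLCC1 siRNA (log2 fold change -0.15 with an SE of 0.083, adjusted p = 0.229), and -0.10 without control replicate 1.

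At the entry of glutamine carbon, GLUD1, glutamate dehydrogenase, stood at 104, 123 and 114 CPM in controls and at 92.1, 95.7 and 101 CPM after lncSLCC1 siRNA. The groups did not overlap, and the difference missed the threshold (log2 fold change -0.24 with an SE of 0.088, adjusted p = 0.0989 by edgeR) and passed without control replicate 1 at -0.30 (adjusted p = 0.000844). GLUD2 is a near-identical retrocopy listed at 40.4 to 50.6 CPM, so reads of both cannot be fully told apart. The sum of GLUD1 and GLUD2 differed by -0.22 on the log2 scale, and reads that were not unique are in neither row. GOT1, the cytosolic aspartate aminotransferase of the malate-aspartate shuttle, stood at 138, 113 and 114 CPM in controls and at 101, 99.0 and 99.7 CPM after lncSLCC1 siRNA, again with no overlap (log2 fold change -0.29 with an SE of 0.094, adjusted p = 0.0693 by edgeR), and passed without control replicate 1 at -0.19 (adjusted p = 0.0177). GOT2, the mitochondrial enzyme, was at 345 to 396 CPM in controls and 345 to 354 CPM after lncSLCC1 siRNA (log2 fold change -0.06, SE 0.078, and 0.01 without control replicate 1). The GOT1 to GOT2 read ratio was 0.349, 0.329 and 0.326 in controls and 0.293, 0.281 and 0.282 after lncSLCC1 siRNA, with no overlap (log2 difference -0.23, exact permutation p = 0.1).

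In all, 8 ratios between members were compared, and 4 had groups that did not overlap, where 39.0% of single tested genes did not overlap. The share over other pairs of genes was not computed. Each of the 4 ratios without overlap had the smallest exact permutation p that this design allows, 0.1, and an adjusted p of 0.2 over the 8, so none passed. The ratio of ME2 to ME3 reads differed by 0.26 on the log2 scale with overlapping groups (exact permutation p = 0.3) and by 0.093 without control replicate 1, and that of PC to PDHA1 by 0.12 (p = 0.2).

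**Figure D4:**
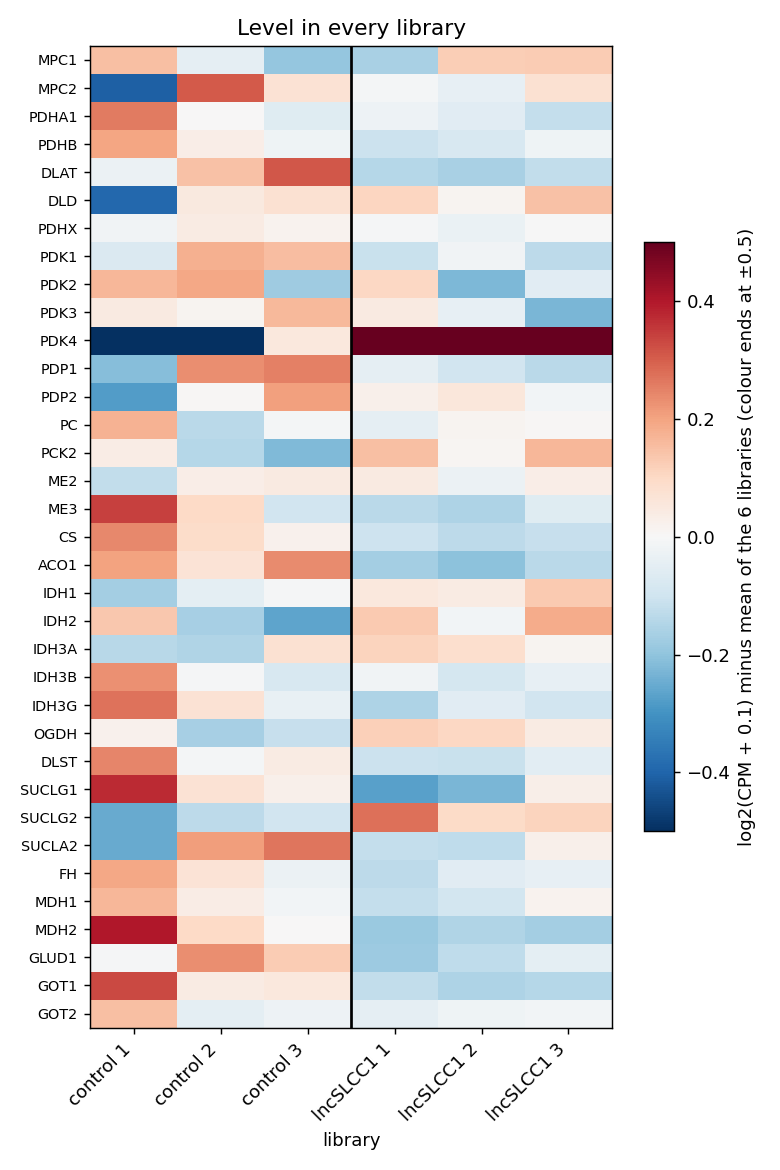
Level of each member in each of the 6 libraries, as log2(CPM + 0.1) minus the mean over the 6 libraries; red is above and blue below that mean, and the colour scale ends at 0.5 on either side. The black line separates controls from lncSLCC1 siRNA libraries: control replicate 1 departs from the other controls in both directions, and the 3 lncSLCC1 siRNA libraries resemble each other.

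Levels per length, from TMM-scaled CPM and the longest GENCODE release 29 transcript, spread widely among the members. Behind MDH2 in controls came MDH1 at 150 ± 9.61, GOT2 at 148 ± 11.4, IDH3B at 124 ± 14.2 and CS at 106 ± 8.33 RPKM (SD, n = 3 each), and the ranges of 1 SD overlapped between MDH1 and GOT2, between GOT2 and IDH3B and between IDH3B and CS. The lowest besides PDK4 were PDK2 at 1.51, PDK1 at 2.00 and PDP2 at 2.81 RPKM. With the median transcript length in place of the longest, MDH2 and PDK4 were again first and last, while CS came second and PDK1 went from rank 33 to rank 24, so ranks between the ends depend on the transcript model.

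Genes next to the members in the same pathways were taken from 8 lists; 52 of their genes passed the low-count filter, and 3 rose and 4 fell, where 6.46% and 7.39% of all tested genes did. SDHB, the iron-sulphur subunit of succinate dehydrogenase, had a log2 fold change of -0.31, its membrane anchors SDHD and SDHC had 0.18 and 0.07, and none passed; without control replicate 1 these were -0.16, 0.01 and 0.17. SDHAF1, an assembly factor of that complex, stood at 14.8, 13.21 and 9.63 CPM in controls and at 6.91, 5.87 and 6.93 CPM after lncSLCC1 siRNA. It fell by 0.93 on the log2 scale (SE 0.175, adjusted p = 0.00951 by edgeR), the 1 of 4 assembly factors to pass. SDHAF2, at -0.59, did not pass (adjusted p = 0.0613 by edgeR; 0.0326 with the replicate block), nor did ACN9 at -0.23.

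Of 7 tested carriers of cycle metabolites, SLC25A22, a mitochondrial glutamate carrier, was the 1 to pass. It stood at 243, 217 and 207 CPM in controls and at 164, 162 and 152 CPM after lncSLCC1 siRNA, and fell by 0.48 on the log2 scale (SE 0.084, adjusted p = 0.0074 by edgeR). SLC25A10 and SLC25A11, the dicarboxylate and oxoglutarate carriers, had log2 fold changes of -0.32 and -0.27 and did not pass; without control replicate 1 SLC25A10 passed at -0.20 (adjusted p = 0.0167) and SLC25A11 stood at -0.17. Of 10 enzymes of glutamine and glutamate metabolism, ABAT, the GABA transaminase, rose by 0.41 (SE 0.086, adjusted p = 0.0154 by edgeR), and GPT and ALDH4A1, at 0.50 and -0.33, did not pass. Of 4 tested users of citrate, malate or acetate in the cytosol and matrix, ME1, the cytosolic malic enzyme, rose by 0.53 (SE 0.110, adjusted p = 0.0145 by edgeR). ACLY, ATP-citrate lyase, had a log2 fold change of -0.04. ACSS2, an acetyl-CoA synthetase, was at 0.31 and passed without control replicate 1 at 0.41 (adjusted p = 0.00023 by edgeR).

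Of 11 tested genes for lipoate synthesis and the sister dehydrogenase complexes, DHTKD1, an oxoadipate dehydrogenase related to OGDH, was the 1 to pass. It stood at 11.5, 13.21 and 12.04 CPM in controls and at 20.5, 22.5 and 20.6 CPM after lncSLCC1 siRNA, and rose by 0.79 on the log2 scale (SE 0.112, adjusted p = 0.00271 by edgeR), with a call in each of the 14 alternatives tried. The branched-chain complex subunits BCKDHB and DBT, at 0.45 and 0.28, did not pass; BCKDHB passed without control replicate 1 at 0.33 (adjusted p = 0.0203 by edgeR) and with the replicate block at 0.46 (0.0347). Of 11 tested regulators of mitochondrial gene expression, the transcription factor NRF1 fell by 0.38 (SE 0.107, adjusted p = 0.0415) and the coactivator PPARGC1B by 0.48 (SE 0.139, adjusted p = 0.047 by edgeR), and ESRRA, the estrogen-related receptor alpha, at -0.32, did not pass, but did without control replicate 1 at -0.23 (adjusted p = 0.0125). NRF1 and PPARGC1B lost their calls with library totals (adjusted p = 0.0823 and 0.0918) and without any 1 of the 3 lncSLCC1 siRNA libraries, and both were lost without control replicate 2 (0.152 and 0.0807), and PPARGC1B also without control replicate 3 (0.0619). The replicate block ended the call of NRF1 (0.0592), and DESeq2 size factors and limma-voom ended that of PPARGC1B (0.0501 and 0.0533). D2HGDH, a 2-hydroxyglutarate dehydrogenase, had a log2 fold change of 0.13. Calls of SDHAF1, SLC25A22, ABAT and ME1 also changed with a library left out. Of all genes, 13.8% were called with all libraries. The share was 3.79%, 3.03% and 2.93% without lncSLCC1 siRNA replicate 1, 2 or 3, and 3.95% without control replicate 2. Each of the 4 calls was lost without lncSLCC1 siRNA replicate 2 (adjusted p = 0.0635, 0.0533, 0.073 and 0.0649 by edgeR). Without lncSLCC1 siRNA replicate 1, ABAT and ME1 lost theirs (0.0857 and 0.0752), without replicate 3 SLC25A22, ABAT and ME1 did (0.0638, 0.103 and 0.0737), and without control replicate 2 SDHAF1 and ABAT did (0.0572 and 0.0749).

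**Figure D5:**
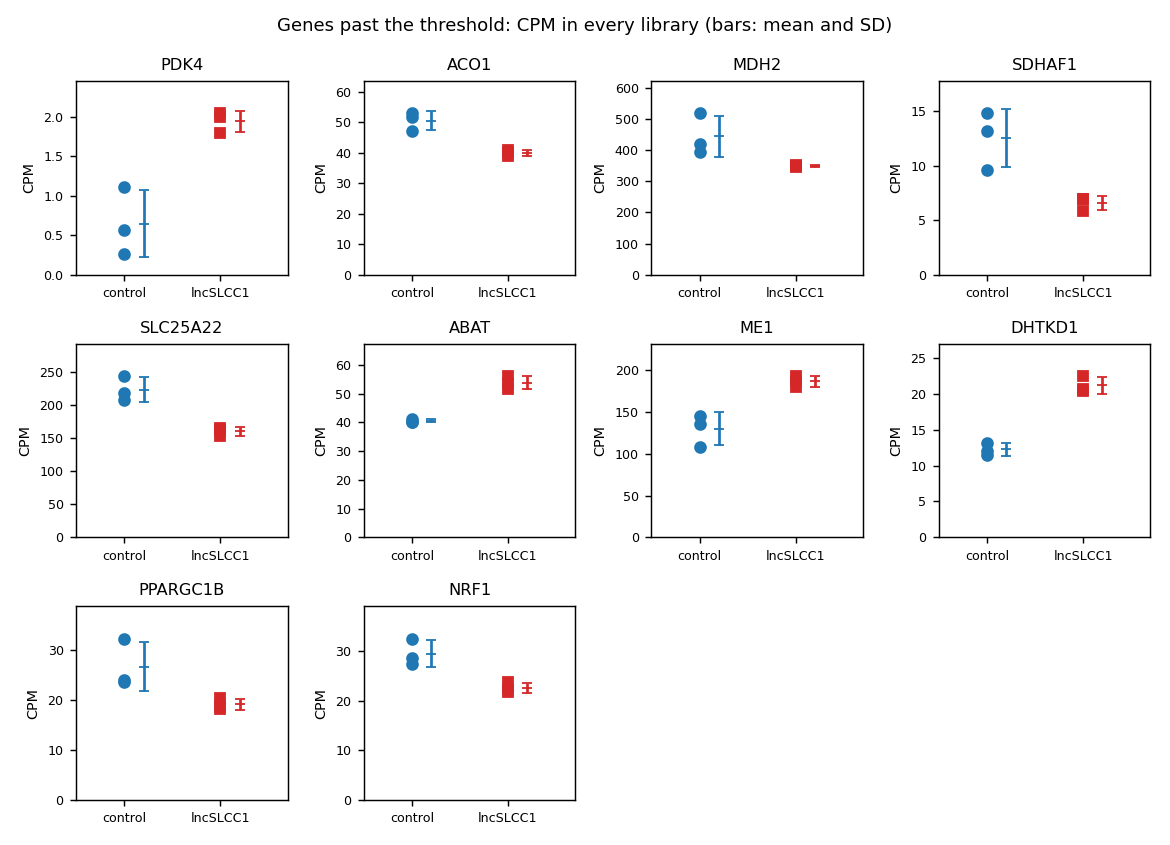
CPM in every library for the 3 called members (PDK4, ACO1, MDH2) and the 7 called neighbouring genes, with controls as blue circles, lncSLCC1 siRNA libraries as red squares and bars for the mean and SD of 3 libraries; each vertical axis starts at 0. In all 10 panels the groups do not overlap, which is no further support because the genes were chosen by their call. Of all tested genes, 39.0% had groups that did not overlap.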

How the data were processed

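RNA-seq of DLD-1 cells was deposited by the authors as raw read counts, in 1 table of gene symbols per library (6 libraries). Per the submitters' processing notes, TopHat2 2.0.11 and HTSeq were used with builds hg19 and GRCh37. Neither annotation release nor strand setting was found, and antisense reads may thus be mixed with those of a gene. Rows that name no gene were dropped: of all counts, 5.42% to 7.58% had no feature, 8.83% to 10.1% were ambiguous and 12.8% to 13.8% were not unique. Groups came from the labels. The counts were tested with edgeR 4.0.16 (R 4.3.3; TMM, default low-count filter, no covariate, quasi-likelihood), with p-values adjusted over all tested genes; each SE was derived from the fitted change and its F value. Alternatives used DESeq2 1.42.0, limma 3.58.1, other scalings and filters, offsets for GC content and length (longest transcript of GENCODE release 29), the replicate block, and each library left out. Ratios were compared by exact permutation. The fits were tested on simulated data, which held no outlying library and no planted change as small as those of most members. That test therefore does not show how the fits perform for the members. No 2 libraries of a group agreed within sampling noise. Chi-square per gene was 1.79 to 1.90 between lncSLCC1 siRNA libraries and 5.46 to 28.0 between controls. The 5.46 was that of control replicates 2 and 3, so the controls differed more among themselves even without control replicate 1. All members, up to 3 genes with the smallest p in each neighbouring list, and RP11-400N13.2 were named by rule; GLUD2 and the markers were added; some genes of these lists are not reported here. Members and lists were chosen with earlier results of these data known.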

Additional observations from a re-analysis of the deposited data

How the results depend on the processing

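Member calls were 3 (1 higher, 2 lower) with all libraries. They were 3 higher and 0 lower with library totals, 6 with 5 lower without a low-count filter, 2 with 1 lower both at a mean of 1 CPM and with limma-voom, 1 with 0 lower with the replicate block, and 15 with 5 higher and 10 lower with GC content and length offsets. Over all genes the share called was 14.8%, 10.9%, 14.7%, 13.21%, 13.5% and 30.1% under library totals, no filter, the 1 CPM mean, limma-voom, the replicate block and the offsets. With each library left out in turn they ran from 0 to 15, from 0 to 5 higher and from 0 to 10 lower. Calls over all genes ran from 457 to 4543 with a library left out, 213 to 2112 higher and 244 to 2431 lower, and were 3272 (1600 higher, 1672 lower) without a low-count filter and 4595 (1712 higher, 2883 lower) with the offsets, against 2110 (984 higher, 1126 lower). With library totals 1442 genes were higher and 814 lower, and the median log2 fold change moved to 0.0765 for all genes and -0.0575 for the members. Neighbouring genes had 3 calls higher and 4 lower. They had 5 higher and 2 lower with library totals, 5 and 8 without a filter, and 7 and 13 with the offsets; with a library left out, 1 to 5 were higher and 0 to 10 lower. Of the named genes, those whose sign changed had no call in either direction: MPC2 went to 0.050 with library totals, 0.00977 with the replicate block and 0.0106 with limma-voom; PDHX, PC, GOT2 and ACLY to 0.041, 0.049, 0.016 and 0.028 with library totals; PDP2, ME2 and SDHC to -0.0595, -0.17 and -0.205 with the offsets. With a library left out, MPC1 ran from -0.024 to 0.150, MPC2 from -0.190 to 0.151, PDP2 from -0.087 to 0.149, PC from -0.096 to 0.061, ME2 from -0.025 to 0.056, GOT2 from -0.096 to 0.0086 and SDHC from -0.00074 to 0.166. The log2 ratio of IDH1 to IDH2 then ran from -0.214 to 0.067 and that of PDK1 to PDP1 from -0.039 to 0.083. The cause of these changes was not tested. Deviations from the group mean correlated at 0.094, 0.0014 and -0.016 between same-numbered libraries, and at -0.085 to 0.10 between the others. Whether equal numbers share a culture or day is not stated, and 3 libraries per group cannot settle it. Among the named genes the block ended the calls of ACO1, MDH2 and NRF1, added those of SDHAF2 and BCKDHB, and changed no other. PDK4 is limited by depth, at 4 to 32 reads per library.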
